A study of Fukomys damarensis and Heterocephalus glaber and Mus musculus with 160 samples.

Results

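Liver transcription factor regions without any histone mark were places in the genome of a mole-rat where the same liver factor was bound in 2 animals and where none of the histone modification libraries of the species had a peak. For each factor with a list from 2 animals, peaks of the 2 animals were joined into 1 shared region when they overlapped by at least 50% of the shorter peak. A shared region was counted as unmarked when it overlapped no peak of any H3K4me3, H3K27ac or H3K4me1 library of liver or heart, and only scaffolds (pieces of the assembled genome) with at least 1 histone peak were used. This left 11182 unmarked regions of 96673 shared ones, of which 9075 of 57702 came from the naked mole-rat (NMR, Heterocephalus glaber) and 2107 of 38971 from the Damaraland mole-rat (DMR, Fukomys damarensis). The regions were chosen by the presence and absence of peaks in these libraries (a factor peak in 2 animals, no histone peak), so the unmarked state itself is a description.

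CEBPA, FOXA1, HNF4A, RXRA and HNF6 are transcription factors that keep liver genes active. CEBPA is a leucine zipper protein with a central part in energy metabolism. FOXA1 is a forkhead protein and the textbook pioneer factor, able to bind DNA wrapped in nucleosomes and to open it for others. HNF4A and RXRA are nuclear receptors; HNF4A binds DNA as a pair with itself, and RXRA is the shared partner of many other nuclear receptors. HNF6 is a cut homeodomain protein of hepatocytes and bile duct cells, and TBX5 is a T-box factor of heart development. Among the histone marks, H3K4me3 lies at promoters, H3K27ac at active promoters and enhancers, and H3K4me1 at enhancers whether or not they are active. An active regulatory element commonly carries at least 1 of these marks in addition to its factors.

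The values came from chromatin immunoprecipitation with sequencing (ChIP-seq), in which an antibody recovers crosslinked chromatin and places with more reads than background are called as peaks. All animals were wild-type adults, untreated as far as the labels say. The NMR factor libraries came from the livers of NMR30 (male, 13 months) and NMR35 (male, 15 months), each with CEBPA, FOXA1, HNF4A and RXRA. The DMR factor libraries came from the livers of DMR1 and DMR4 (males, 48 months by estimate), each with CEBPA, FOXA1 and RXRA, while HNF4A was measured in DMR4 alone and HNF6 in DMR1 alone. TBX5 was measured in the heart of DMR6 (female, 48 months by estimate). The histone lists came from NMR30, NMR31, NMR32, NMR34 and NMR35 (males, 13 to 17 months) and from DMR1, DMR2, DMR3, DMR4, DMR6 and DMR11 (36 to 48 months by estimate; DMR6 female, the others male). There were 25 histone libraries for NMR, which together covered 365 Mb, and 27 for DMR, which covered 345 Mb. Histone lists held 25868 to 253457 peaks in NMR and 20803 to 165394 in DMR, and factor lists held 26218 to 122941 and 19398 to 139418. The longest NMR list was liver H3K4me3 of NMR30, and without it the number of unmarked NMR regions went from 9075 to 9877. Tissue identity was not checked against marker genes, because peak lists hold no expression values.

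The unmarked share differed by factor. On scaffolds with a histone peak, each of the 3 factors measured in pairs in both species had a higher share in NMR than in DMR. Of the shared CEBPA regions, 3795 of 30045 (12.6%) were unmarked in NMR and 1142 of 17044 (6.7%) in DMR. For FOXA1 the counts were 1933 of 11540 (16.8%) in NMR and 554 of 6550 (8.46%) in DMR. RXRA had 1217 of 10322 (11.8%) unmarked regions in NMR and 411 of 15377 (2.67%) in DMR. HNF4A, paired in NMR only, stood highest with 2130 of 5795 (36.8%). In DMR the scaffold rule left out 688 of 7238 shared FOXA1 regions, 497 of 17541 CEBPA regions and 494 of 15871 RXRA regions. In NMR it left out 24 of 11564, 62 of 30107 and 25 of 10347, in the same order. The regions left out overlap no histone peak. Counted as unmarked, they would turn the FOXA1 order of the species. The species were not tested against each other, since their histone lists differ in number, length and genome assembly.

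Binding that was not shared by the animals was more often unmarked than shared binding in each of the 14 liver lists. Of the CEBPA peaks of NMR30 without a counterpart in NMR35, 67.6% overlapped no histone peak, against 13.0% of the shared peaks. The gap was smallest in the RXRA list of DMR4, at 10.8% of the unshared and 2.82% of the shared peaks. In the RXRA list of DMR1, the other animal, 76.7% of the unshared and 2.79% of the shared peaks were unmarked. The 2 DMR animals thus lay far apart for unshared peaks; shared peaks are the same places in both animals, so their shares had to be close.

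The unmarked regions were concentrated among weak factor peaks. Strength is given by the fold enrichment, the authors' peak-caller value of reads over local background at the summit. Shared regions of each factor were ranked by the lower of the 2 animals' folds and divided into 10 groups of equal size. The lower fold compares lists that can differ in scale. Median folds of marked CEBPA regions, for instance, were 5.90 in DMR1 and 20.4 in DMR4. For CEBPA in NMR, 35.6% of the weakest group were unmarked and 0.732% of the strongest group. For HNF4A in NMR the share went from 60.7% to 21.6%, so that more than 1 in 5 of its strongest regions still overlapped no histone peak. The strongest RXRA group was unmarked in 8.23% of cases in NMR and in 2.02% in DMR. Beyond the weakest group, the RXRA share was nearly level, at 8.23% to 12% in NMR and 1.56% to 2.67% in DMR.

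**Figure D1:**
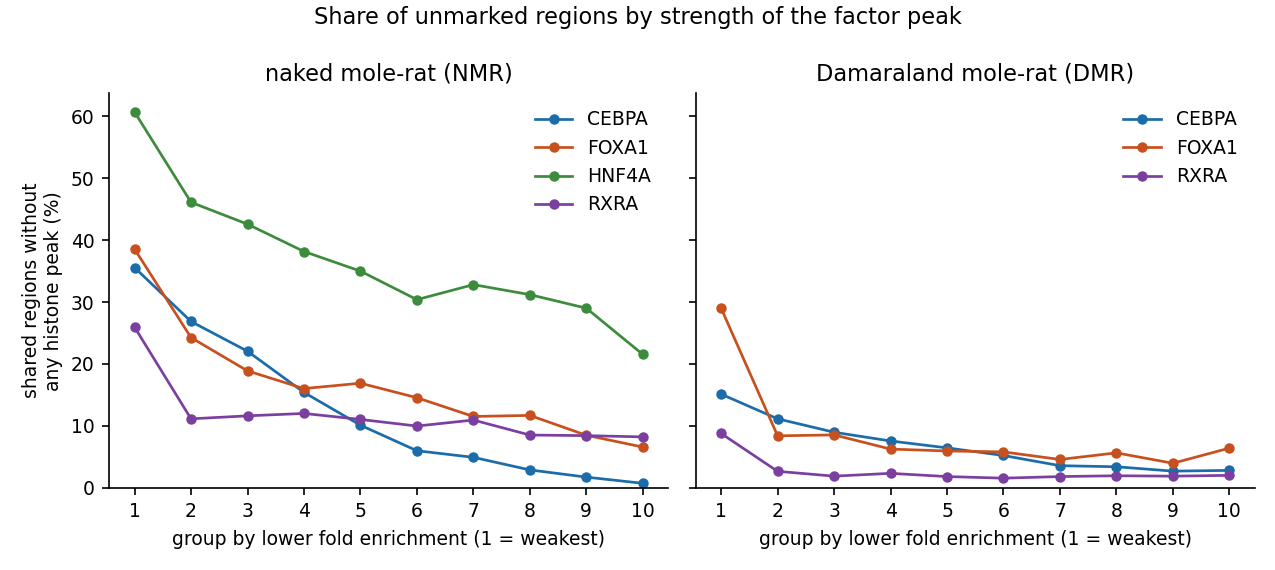
Share of shared factor regions without any histone peak (vertical axis, %) by group of the lower of the 2 animals' fold enrichments (horizontal axis, 10 groups of equal size, 1 the weakest), with 1 line per factor, for NMR (left) and DMR (right). The weakest group had the highest share for each of the 7 lines, and HNF4A in NMR lay above the other factors in each group, from 60.7% down to 21.6%.

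Median fold enrichment was lower at unmarked than at marked regions in each of the 14 libraries. CEBPA had a median fold of 5.01 at unmarked and 10.8 at marked regions in NMR30, and of 5.14 and 8.16 in NMR35. In DMR the CEBPA medians were 4.88 and 5.90 in DMR1, and 7.14 and 20.4 in DMR4. As a ratio of medians, CEBPA thus had the widest gap in both NMR animals and in DMR4. FOXA1 medians were 5.52 and 6.96 in NMR30, 6.82 and 10.1 in NMR35, 5.85 and 7.68 in DMR1, and 5.23 and 7.28 in DMR4. HNF4A medians were 5.24 and 6.05 in NMR30, and 7.27 and 10.5 in NMR35. RXRA medians were 5.34 and 6.15 in NMR30, 9.01 and 9.23 in NMR35, 5.55 and 5.83 in DMR1, and 5.36 and 13.2 in DMR4. RXRA therefore showed nearly the same median at the 2 kinds of region in 2 of its 4 libraries, and in DMR4 a ratio larger than in any FOXA1 or HNF4A library.

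As a mean over factors within an animal, the median log2 fold of marked minus unmarked regions was 0.46 in NMR30, 0.45 in NMR35, 0.25 in DMR1 and 1.10 in DMR4. The mean over animals was 0.56 ± 0.37 (SD, n = 4) and all 4 lay above 0. The exact two-sided sign-flip test gave p = 0.13 (adjusted p = 0.25 over the 2 tests made), which is the smallest p that 4 animals allow, so the design cannot reach 0.05. Width enters the rule, since a wider region has more bases that can touch a histone peak, and its part in this difference was not tested. When only the summits, and not the whole regions, had to lie outside histone peaks, the mean difference was 0.22, with 3 of 4 animals above 0 (exact sign-flip p = 0.25).

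**Figure D2:**
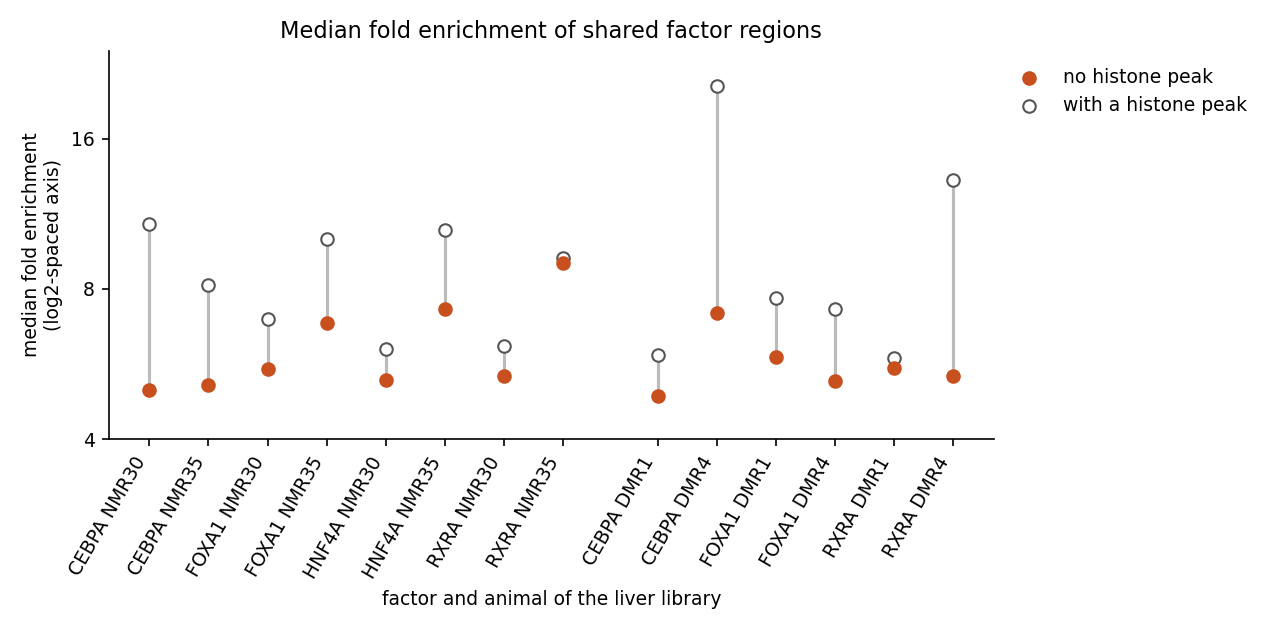
Median fold enrichment (vertical axis, log2-spaced, linear fold values) of shared factor regions in each of the 14 liver libraries (horizontal axis, factor and animal), with filled points for unmarked and open points for marked regions. The filled point lies below the open point in each library, with the smallest gap at RXRA of NMR35 (9.01 and 9.23) and the largest at CEBPA of DMR4 (7.14 and 20.4).

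The regions were short, and most lay within a few kilobases of a histone peak. Median widths of unmarked regions ran from 466 bases (RXRA in NMR) to 519.5 bases (HNF4A in NMR), against 511 (FOXA1 in DMR) to 702 bases (RXRA in DMR) for marked ones. The widest unmarked region spanned 4817 bases in NMR (HNF4A) and 14386 bases in DMR (RXRA). The median distance to the nearest histone peak of any library was 1982 bases for CEBPA, 1934 for FOXA1, 1594.5 for HNF4A and 1767 for RXRA in NMR. In DMR these distances were longer, at 4333 bases for CEBPA, 5925 for FOXA1 and 4700 for RXRA. More than 10 kb from any histone peak lay 4.68% (RXRA) to 5.28% (FOXA1) of the NMR regions and 29.2% (CEBPA) to 36.3% (FOXA1) of the DMR regions.

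Values just inside and just outside the rule were as follows. For CEBPA in NMR, 183 unmarked regions lay less than 100 bases from a histone peak, with a median lower fold of 4.63, and 298 marked regions had at most 100 of their bases covered, with a median of 4.67. For FOXA1 in DMR the corresponding groups held 22 and 60 regions, with medians of 5.62 and 5.32. For RXRA in DMR they held 20 and 60, with medians of 5.81 and 4.66. At the edge of the matching rule, 213 unmarked CEBPA peaks of NMR30 overlapped a peak of NMR35 by 40% to 50% of the shorter and 263 by 50% to 60%, with median folds of 4.33 and 4.53. In the CEBPA list of DMR4 these groups held 23 and 46 peaks, with median folds of 4.26 and 5.15. Regions with a peak in a single histone library counted as marked, and these made up 0.962% (RXRA in DMR) to 15.5% (HNF4A in NMR) of the marked regions.

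The summits of the 2 animals lay further apart at unmarked than at marked CEBPA regions, and closer together at unmarked RXRA regions. For CEBPA the median summit distance was 67 bases at unmarked and 40 bases at marked regions in NMR, and 49 and 39 bases in DMR. For RXRA it was 46 and 61 bases in NMR, and 47 and 55 bases in DMR. FOXA1 had 50 and 46 bases in NMR and 40 and 43 in DMR, and HNF4A had 60 and 62 bases in NMR. Fold enrichment also ranked regions alike in the 2 animals to different degrees. Spearman's rho across CEBPA regions of NMR was 0.24 over the 3795 unmarked and 0.69 over the 26250 marked regions. It was lower at unmarked regions in 5 of the 7 lists, RXRA of NMR among them (0.30 over 1217 unmarked and 0.52 over 9105 marked regions). The exceptions were in DMR, with 0.63 over 411 unmarked and 0.50 over 14966 marked RXRA regions, and 0.73 over 554 unmarked and 0.48 over 5996 marked FOXA1 regions. These rho values describe regions of the same 2 livers, not replicates.

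Binding of a second liver factor at the same place was then compared, a readout that the rule did not use. A region was counted as co-bound in an animal when a peak of another of the factors measured in pairs in that species overlapped it in the same animal by at least 50% of the shorter. Marked regions were wider by median in each list, for instance 690 against 508 bases for CEBPA in NMR. A wider region has more bases that can meet another peak, and the part of width in co-binding was not tested. Over all folds together, CEBPA regions without a histone peak were less often co-bound than marked ones and RXRA regions more often. The mean over factors gave no clear direction. Unmarked CEBPA regions were co-bound in 24.2% of cases in NMR30 (917 of 3795), against 32.7% of marked ones. In NMR35 the shares were 26.7% and 54.5%, in DMR1 32.7% and 50.0%, and in DMR4 31.3% and 67.9%. The 4 CEBPA libraries thus pointed the same way. Unmarked RXRA regions were co-bound in 88.7% of cases in NMR30 (1080 of 1217), against 73.2% of marked ones. In NMR35 the shares were 92.6% and 77.9%, in DMR1 76.9% and 51.5%, and in DMR4 81.5% and 72.9%. All 4 RXRA libraries therefore pointed the opposite way to CEBPA.

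Over all folds together, HNF4A pointed the same way as CEBPA, and FOXA1 had no common direction. Unmarked HNF4A regions were co-bound in 69.5% of cases in NMR30 and 71.7% in NMR35, below the 81.9% and 86.3% of marked ones. Unmarked FOXA1 regions were co-bound in 73.5% in NMR30 and 82.3% in NMR35, against 73.7% and 74.4% of marked ones. In DMR the 2 animals disagreed on FOXA1, with 79.4% of unmarked and 67.1% of marked regions in DMR1 and 70.4% and 92.0% in DMR4. The mean NMR difference for FOXA1 (marked minus unmarked) was -3.83 percentage points, and it changed sign to 2.12 when the HNF4A lists were left out. For the other 6 pairs of species and factor the sign held in each alternative that was run for single factors. Leaving out 1 animal's factor values was not among these. The DMR mean for FOXA1, 4.65 points, came from -12.3 in DMR1 and 21.6 in DMR4, so its sign depends on the animal.

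Averaged over factors within each animal, marked minus unmarked co-binding was 1.40 percentage points in NMR30, 4.97 in NMR35, -6.80 in DMR1 and 16.5 in DMR4. The mean was 4.02 ± 9.69 points (SD, n = 4), from 68.1% of marked and 64.1% of unmarked regions. The exact two-sided sign-flip test gave p = 0.625 (adjusted p = 0.625), with 3 of 4 animals and 8 of 14 libraries above 0. Over the libraries the difference ranged from -25.3 points (RXRA of DMR1) to 36.6 points (CEBPA of DMR4). The spread between animals was larger than the mean. Without DMR4 the mean was -0.14 points, and with factor peaks limited to a −log10 q of at least 4 it was -0.99 points.

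**Figure D3:**
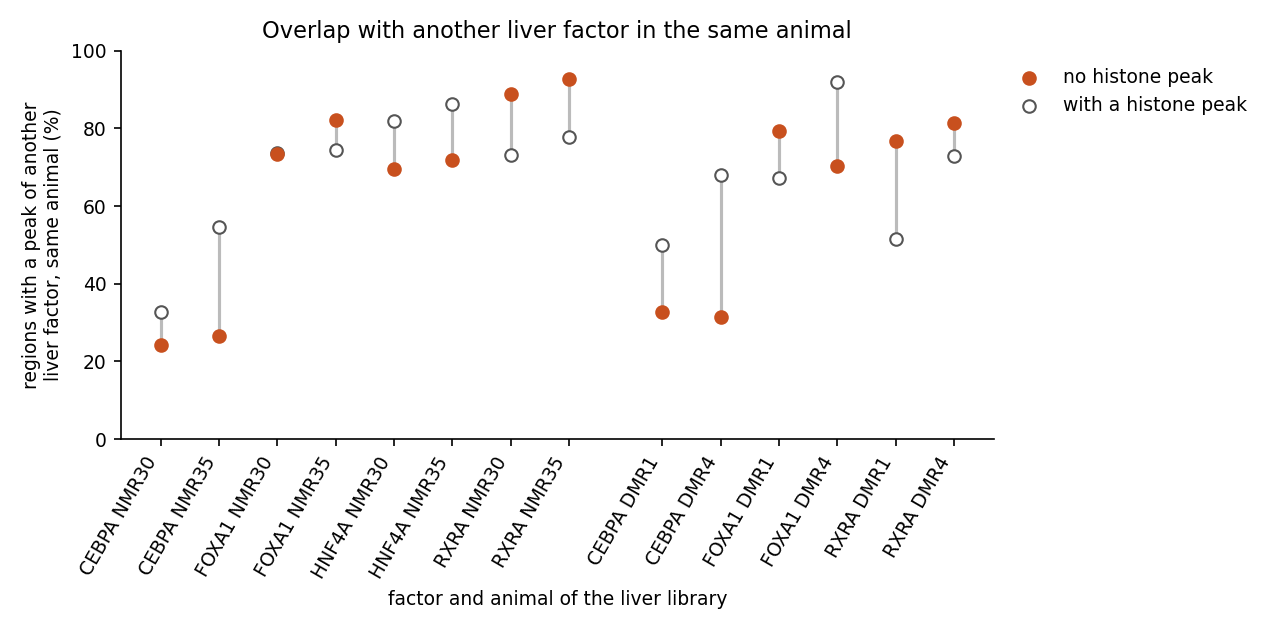
Share of shared regions that overlapped a peak of another liver factor in the same animal (vertical axis, %) in each of the 14 liver libraries (horizontal axis), with filled points for unmarked and open points for marked regions. Filled points lie below open ones in the 4 CEBPA and the 2 HNF4A libraries and above them in the 4 RXRA libraries, while FOXA1 of DMR1 and DMR4 point in opposite directions.

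Counting only partners that were themselves shared by both animals separated the partners by kind. Unmarked RXRA regions of NMR overlapped a shared FOXA1 region in 66.8% of cases (813 of 1217) and a shared HNF4A region in 66.2%, against 30.3% and 20.5% of marked ones. With CEBPA the order was the other way round, at 27.2% of unmarked and 44.3% of marked RXRA regions. Unmarked FOXA1 regions of NMR overlapped HNF4A in 50.3% and RXRA in 42.0%, against 17.8% and 29.0% of marked ones, and CEBPA in 24.1% against 45.9%. Counted from RXRA or FOXA1, the nuclear receptors and FOXA1 thus met more often at unmarked than at marked regions, and CEBPA was found less often. Counted from CEBPA, HNF4A was found at 9.09% of unmarked and 3.70% of marked regions, FOXA1 at 12.8% and 16.9%, and RXRA at 9.22% and 15.5%. Counted from HNF4A, all 3 partners were less frequent at unmarked regions, at 35.0% against 51.5% for RXRA, 42.7% against 45.9% for FOXA1 and 14.9% against 26.5% for CEBPA. Regions at the same place mostly had the same state. At 92.4% of the unmarked RXRA regions with HNF4A, the HNF4A region was itself unmarked. These shares are therefore not independent of each partner's own unmarked share, which was highest for HNF4A (36.8%).

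In DMR the partner pattern was partly different. Unmarked RXRA regions overlapped a shared FOXA1 region in 62.0% of cases and a shared CEBPA region in 58.4%, against 19.4% and 36.4% of marked ones. CEBPA was therefore more frequent at unmarked RXRA regions in DMR and less frequent in NMR. HNF6, from the single list of DMR1, was found at 65.2% of unmarked and 21.0% of marked RXRA regions (22.1% of all). The corresponding HNF6 shares were 69.3% and 27.8% for FOXA1 (31.3% of all) and 31.7% and 21.5% for CEBPA (22.1% of all). HNF6 thus had a higher share at the unmarked regions of all 3 factors. HNF4A, from the single list of DMR4, was found at 67.2% of unmarked and 56.6% of marked RXRA regions (56.9% of all), and at 63.9% and 45.4% of FOXA1 regions (47% of all). At CEBPA regions its shares were 25.5% and 32.5% (32% of all).

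**Figure D4:**
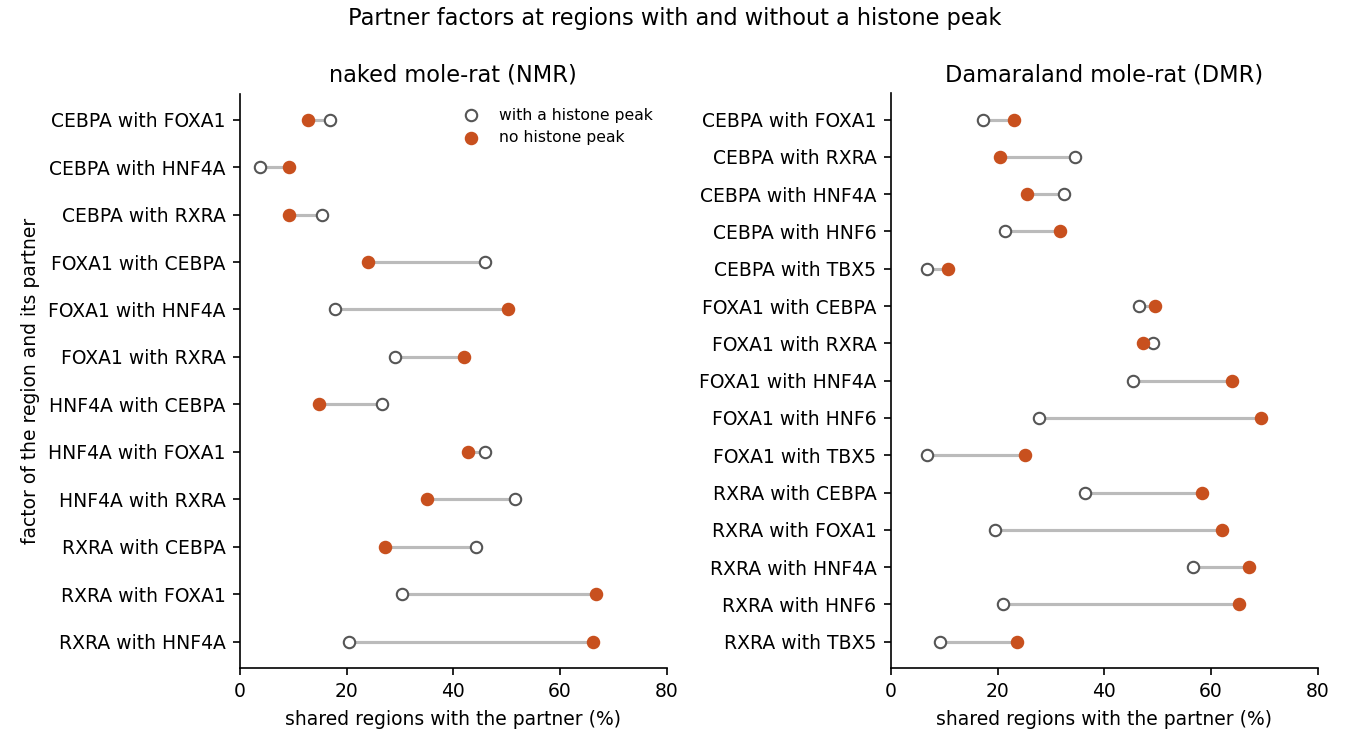
Share of shared regions of a factor that overlapped a partner (horizontal axis, %), for each factor and partner (vertical axis) in NMR (left) and DMR (right), with filled points for unmarked and open points for marked regions. Partners were regions shared by both animals, except HNF4A, HNF6 and heart TBX5 of DMR, which had 1 list each; RXRA with FOXA1 lies at 66.8% and 30.3% in NMR and at 62.0% and 19.4% in DMR.

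Counted this way, 15.2% of unmarked CEBPA regions of NMR met at least 1 other shared factor (575 of 3795; 26.2% of all shared CEBPA regions did). The shares were 65.6% for FOXA1 (64.2% of all), 51.0% for HNF4A (62.7% of all) and 81.7% for RXRA (65.1% of all). In DMR they were 25.7% for CEBPA (40.1% of all), 58.8% for FOXA1 (66.3% of all) and 69.1% for RXRA (44.9% of all). The FOXA1 share of NMR lay close to its background. The contrasts changed with the fold groups defined above. In the weakest group, 48.3% of unmarked and 53.5% of marked HNF4A regions met another shared factor, and in the strongest 100% and 99.8%. FOXA1 of NMR had 49.7% and 53.5%, then 98.7% and 80.1%. CEBPA of DMR had 39.9% and 34.4%, then 79.2% and 59.7%, with the unmarked share lower in the groups between. FOXA1 of DMR had 61.1% and 64.1%, then 92.9% and 79.0%. CEBPA of NMR had 19.6% and 19.3%, then 18.2% and 47.9%. Some of these shares rest on few regions. The strongest group held 22 unmarked CEBPA regions in NMR, and 48 unmarked CEBPA and 42 unmarked FOXA1 regions in DMR. RXRA kept a higher unmarked share in each group. Merging overlapping unmarked regions of different factors gave 6647 distinct places in NMR. Of these, 5218 held an unmarked region of 1 factor and 218 held unmarked regions of all 4. A factor whose region at the place was marked is not counted here, and marked places were not merged for comparison. In DMR there were 1548 distinct places, of which 1214 held an unmarked region of 1 factor and 210 held unmarked regions of all 3.

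Regions with every factor measured in pairs formed a larger part of the unmarked than of the marked regions in 6 of the 7 lists. For RXRA in DMR, 211 of 411 unmarked regions (51.3%) met both CEBPA and FOXA1, against 11.5% of marked ones and 12.6% of all. For RXRA in NMR, 222 of 1217 (18.2%) met all 3 others, against 4.80% of marked ones and 6.38% of all. CEBPA had 239 such regions in NMR (6.30%, against 1.55% of marked and 2.15% of all) and 204 in DMR (17.9%, against 10.8% and 11.2% of all). FOXA1 had 219 in NMR (11.3%, against 4.34% and 5.51% of all) and 210 in DMR (37.9%, against 28.7% and 29.5% of all). HNF4A of NMR was the exception, with 212 (9.95%) against 11.5% of marked ones and 10.9% of all. Of the unmarked CEBPA regions of NMR, 84.8% met no other shared factor, 5.45% met 1, 3.40% met 2 and 6.30% met all 3. These shares moved with scaffold size in both species. In NMR, 16.8% of unmarked RXRA regions at 1 Mb and over met all 3 others, against 39.3% under 100 kb. On NMR scaffolds under 100 kb the HNF4A order turned, with 23.4% of unmarked (22 of 94) and 19.1% of marked regions. The values that follow are of DMR. For FOXA1 the unmarked and marked shares with every factor were 33.0% and 27.5% on scaffolds of 1 Mb and over, 30.2% and 32.7% from 100 kb to 1 Mb, and 52.0% and 57.7% under 100 kb, so the order turned on the 2 shorter classes. For CEBPA they were 11.5% and 10.3% at 1 Mb and over and 68.7% and 34.7% under 100 kb, and for RXRA 43.6% and 11% at 1 Mb and over.

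At these fully bound unmarked regions, the folds of different factors went up and down together. In DMR, Spearman's rho between the RXRA and CEBPA folds was 0.87 in DMR1 and 0.86 in DMR4 over 203 regions, against 0.12 and 0.26 over 1729 marked regions with all 3 factors. Between RXRA and FOXA1 it was 0.86 and 0.86 over 210 unmarked regions, against 0.17 and 0.25 over 1726 marked ones. On scaffolds that reach 1 Mb or more, the RXRA and CEBPA values were 0.78 and 0.80 over 108 unmarked regions and 0.04 and 0.18 over 1527 marked ones. In NMR the contrast lay with CEBPA, where rho with RXRA was 0.68 in NMR30 and 0.32 in NMR35 over 211 unmarked regions and 0.12 and -0.09 over 454 marked ones. RXRA and HNF4A were closely related at both kinds of region in NMR, with 0.87 and 0.82 over 214 unmarked and 0.72 and 0.77 over 445 marked ones. Libraries of 1 animal share their tissue, and the labels do not say what else they share, so these values describe regions and not a test.

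Many DMR regions of this kind lay on short scaffolds, sized by the furthest position that any peak list reached. On DMR scaffolds under 100 kb, 45.5% of shared FOXA1 regions (152 of 334) were unmarked, against 5.79% (339 of 5859) on scaffolds of 1 Mb and over. For CEBPA these shares were 27.9% (115 of 412) and 5.95% (931 of 15642), and for RXRA 27.2% (109 of 401) and 1.82% (257 of 14094). Short scaffolds held 27.4% of the unmarked FOXA1 regions and 3.04% of the marked ones. In NMR the same trend was weaker, for instance 24.8% (56 of 226) of RXRA regions under 100 kb and 10.4% (739 of 7111) at 1 Mb and over. Co-binding went with scaffold size too. Of the unmarked CEBPA regions of DMR, 82.6% met another shared factor on the short scaffolds and 18.0% on the long ones, against 59.9% and 40.9% of marked ones. The excess of co-binding at unmarked RXRA regions was present on the long scaffolds, at 61.9% against 44.1% in DMR and 80.5% against 62.3% in NMR.

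TBX5 is known from the heart, and its list gives the level of overlap with binding in another tissue of another animal. TBX5 peaks of DMR6 overlapped 25.1% of unmarked and 6.72% of marked FOXA1 regions (8.27% of all). The shares were 23.6% and 9.12% for RXRA (9.51% of all), and 10.7% and 6.80% for CEBPA (7.06% of all). Each of the 3 factors thus had a higher TBX5 share at its unmarked regions. On scaffolds under 100 kb the unmarked shares were 49.3% for FOXA1, 46.1% for CEBPA and 43.1% for RXRA, and on scaffolds of 1 Mb and over they were 13.6%, 5.91% and 14.8%. On the long scaffolds CEBPA no longer had the excess, since 6.57% of its marked regions met TBX5 there, while FOXA1 (5.87% of marked) and RXRA (8.86% of marked) kept it.

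**Figure D5:**
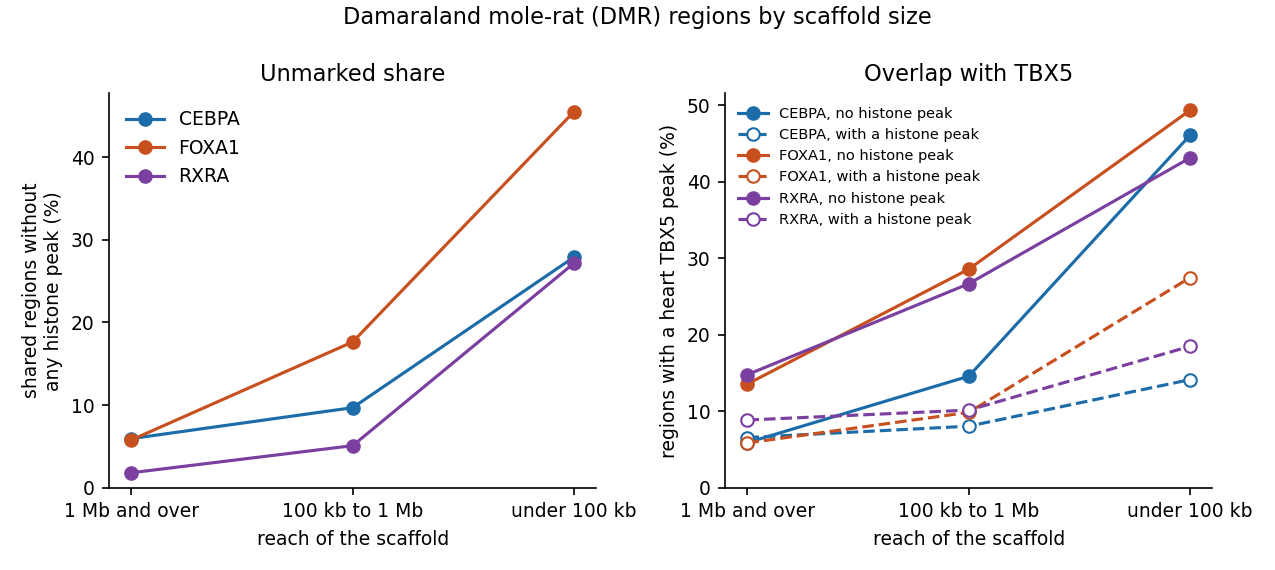
DMR regions in 3 classes of scaffold reach (horizontal axes), with the share of shared regions without any histone peak (left, %) and the share with a heart TBX5 peak (right, %; filled points and solid lines for unmarked, open points and dashed lines for marked regions), 1 colour per factor. Both shares are highest on scaffolds under 100 kb, where 45.5% of FOXA1 regions were unmarked and 49.3% of those met TBX5.

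A low fold in at least 1 animal was more frequent among unmarked than marked regions of each factor. Overlap of such unmarked regions with another shared factor differed by factor. In DMR, the lower fold was under 3 in 23.8% of unmarked RXRA regions (98 of 411), against 2.92% of marked ones, and in 25.6% of unmarked FOXA1 regions (142 of 554), against 2.17%. For NMR the unmarked shares ran from 8.31% (HNF4A) to 10.9% (CEBPA). The 98 RXRA regions of DMR had a median lower −log10 q of 8.33, against 2.18 for the 437 marked ones of equally low fold. At a given fold, the −log10 q of a peak caller goes up with the number of reads at the place. Of the same 98 regions, 87.8% met another shared factor, 55.1% met TBX5 and 54.1% lay on scaffolds under 100 kb. Among the 313 unmarked RXRA regions at or above 3-fold, these shares were 63.3%, 13.7% and 17.9%. The 142 FOXA1 regions of DMR met another shared factor in 59.9% of cases, close to the 58.5% at or above 3-fold and below the 70.8% of marked regions of low fold. They met TBX5 in 49.3% and lay on scaffolds under 100 kb in 51.4%, against 16.7% and 19.2% at or above 3-fold. For the 117 unmarked CEBPA regions of DMR with a low fold, these shares were 40.2% and 42.7%, against 7.32% and 6.34%. Another shared factor was met by 63.2% of them, against 21.4%. In NMR, low-fold unmarked regions met another shared factor less often than the others for FOXA1 (56.9% against 66.7%) and RXRA (78.0% against 82.1%), and more often for CEBPA (31.3% against 13.2%) and HNF4A (64.4% against 49.8%).

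The unmarked region of NMR with the highest HNF4A and RXRA folds lay on scaffold JH168592.1, at a place bound by all 4 factors and unmarked for 3 of them. Its HNF4A region, JH168592.1:363091-363593 (503 bases), ranked first in HNF4A and contained the first-ranked RXRA region, JH168592.1:363113-363582. It was also named as the region with most factors, where ties among regions with all 4 factors were broken by fold. HNF4A had a fold of 357.2 in NMR30 and 935.9 in NMR35, RXRA 202.9 and 652.5, FOXA1 442.2 and 327.5, and CEBPA 58.9 and 30.4. The CEBPA region there, JH168592.1:363104-363599, was also unmarked. The FOXA1 region, JH168592.1:363071-364173, was wider (1103 bases) and counted as marked, since 181 of its bases lay under peaks of 2 histone libraries. The nearest histone peak, of liver H3K4me3 in NMR30, began 399 bases from the HNF4A region. The first-ranked FOXA1 region, JH169426.1:322188-323179, was also bound by all 4 and was unmarked for each, with FOXA1 folds of 330.9 and 126.0, HNF4A of 265.3 and 366.8, RXRA of 165.5 and 227.9, and CEBPA of 45.3 and 7.63. The first-ranked CEBPA region, JH172829.1:528790-529488, had CEBPA folds of 45.7 in NMR30 and 32.9 in NMR35 and FOXA1 folds of 4.98 and 4.57, with no HNF4A or RXRA peak, and lay 1505 bases from a histone peak.

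Regions bound by 1 factor alone, with no peak of any other factor in any animal, were most frequent for CEBPA, whose NMR lists were also the longest of that species. In DMR the other factors included the single lists of HNF4A, HNF6 and heart TBX5, so lone shares are not comparable between the species. Lone regions made up 63.6% of unmarked CEBPA regions in NMR (2415 of 3795), against 40% of marked ones (43% of all). In DMR they made up 51.8% (591 of 1142), against 19.0% (21.2% of all). For HNF4A in NMR they made up 18.3% (389), against 7.53% of marked ones (11.5% of all). For RXRA they made up 4.60% (56) in NMR, against 14.0% of marked ones (12.9% of all), and 11.2% (46) in DMR, against 9.03% (9.08% of all). For FOXA1 they made up 11.3% (218) in NMR, against 16.3% of marked ones (15.5% of all), and 6.68% (37) in DMR, against 3.99% (4.21% of all). Lone binding was thus more frequent at unmarked regions for CEBPA in both species and for HNF4A in NMR. The higher shares of FOXA1 and RXRA in DMR rested on 37 and 46 regions, and that of RXRA lay close to its share of all. The strongest CEBPA region of this kind in NMR, JH168842.1:327761-328629, ranked 4 among the unmarked CEBPA regions, with folds of 30.7 in NMR30 and 28.4 in NMR35. In DMR it was KN122834.1:3695846-3696541, with folds of 20.7 in DMR1 and 87.8 in DMR4, 3247 bases from a histone peak. In NMR the folds of the lone CEBPA region lay below the 45.7 and 32.9 of the unmarked region ranked first by its lower fold. The highest folds of any unmarked CEBPA region were 65.8 in NMR30 and 83.2 in NMR35. The strongest lone FOXA1 region of NMR, JH171964.1:748989-749939, had folds of 18.9 and 48.2 and lay 10902 bases from a histone peak. The strongest lone HNF4A region, JH169319.1:290182-290558, had 7.14 and 12.2, and the strongest lone RXRA region, JH171544.1:2211981-2212748, had 7.38 and 13.7 but lay 12 bases from a histone peak. In DMR the lone FOXA1 region KN120729.1:335764-336223 had 10.6 and 11.9, and the lone RXRA region KN125101.1:2975974-2976568 had 10.4 and 13.2. The HNF4A and RXRA examples were far from the strongest of their factors, ranking 490 and 255 in NMR.

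In DMR a single place ranked first for all 3 factors, on scaffold KN121233.1, which reached only 26911 bases. The CEBPA region was KN121233.1:8135-9161, the FOXA1 region KN121233.1:8136-9159 and the RXRA region KN121233.1:8154-9145. Folds in DMR1 and DMR4 were 138.9 and 77.7 for CEBPA, 152.8 and 186.2 for FOXA1, and 140.9 and 86.4 for RXRA, with 201.2 for HNF4A in DMR4 and 133.8 for HNF6 in DMR1. All 5 liver factors were thus strong at once. Heart TBX5 also had a peak there, with a fold of 2.10 but a −log10 q of 4281, and the −log10 q of CEBPA in DMR1 was 42270. The nearest histone peak, of heart H3K4me3 in DMR4, began 9789 bases from the CEBPA region. Leaving that histone library out removed scaffolds from the set and took the number of unmarked DMR regions from 2107 to 1917.

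Some scaffolds held many unmarked regions, and those named here were chosen after their values were seen. JH167841.1 of NMR, which reached 687284 bases, held 127: 36 of its 64 shared HNF4A regions, 36 of 62 RXRA, 34 of 60 FOXA1 and 21 of 27 CEBPA regions. Its HNF4A regions lay between bases 5260 and 253067, and the 25 histone lists had 433 peaks on that scaffold. In DMR, KN125055.1 (51110 bases) held 28, with 11 of 13 FOXA1, 9 of 10 CEBPA and 8 of 9 RXRA regions, and 3 histone peaks over all libraries. KN123631.1 (61150 bases) held 26, with 14 of 15 FOXA1 regions, and 2 histone peaks. On these 2 DMR scaffolds most shared regions of each factor were thus unmarked.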

How the data were processed

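Peak lists of 69 mole-rat libraries (52 histone, 17 factor) were used. Peaks were called with MACS2, per the submitters' processing notes, with 1 list per library; for its version and settings and for the aligner, nothing is stated in the labels or headers. The builds were HetGla_1.0 for NMR and DMR_v1.0 for DMR, per the file names of the histone lists; the factor files name the species only, and share scaffold names with them. Fold enrichment, as deposited, is a ratio on a linear scale from the authors' peak caller, and the deposited −log10 q-value is the caller's own, at least 1.30 in each list. Read depth is unknown, since peak lists hold no read counts, so no counting interval is given.

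From the lists, overlaps, shares and medians were computed in Python 3.11.15 (SciPy 1.17.1, NumPy 2.4.6, pandas 2.3.3) and checked on simulated intervals. A region with several peaks of an animal took the highest fold, and a 1-base overlap with a histone peak made it marked. Animals are separate individuals per the labels. The pairing is within an animal, where marked and unmarked regions come from the same libraries. The 2 tests were exact two-sided sign-flip tests over 4 animals, with Benjamini-Hochberg adjustment, after averaging over factors.

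Regions named are, per species and factor, the one ranked first by the lower of the 2 folds and the first without a peak of any other factor (heart TBX5 included). Per species, the one with most factors was also named. The members and lists were chosen with earlier results of these data known. Alternatives changed the matching, the q limit, the histone set and the scaffolds. They also left out each histone library and each animal of the factor lists in turn. Sequences and genes were not analysed here, for want of a genome of these builds. Guinea pig and mouse lists were not used here.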

Additional observations from a re-analysis of the deposited data

How the results depend on the processing

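Marked regions kept a higher log2 fold than unmarked ones in each of the 68 alternatives run. The difference was 0.39 to 0.67 when 1 histone library, or the value of 1 animal, was left out. It was lowest, at 0.22, when only summits had to avoid histone peaks. The co-binding difference kept its sign except in 2 settings. With factor peaks at a −log10 q of at least 4 it was -0.99 points (exact sign-flip p = 0.75). The other setting left the value of DMR4 out of the mean, with the shared regions unchanged. Leaving out 1 histone library, or the value of 1 animal, in turn gave -0.14 to 7.63 points. With summits alone the co-binding difference was 0.041 points. The cause of these changes was not tested. With no replicate block, that is without pairing within an animal, the differences were 4.02 points (exact permutation p = 0.429) and 0.56 (exact permutation p = 0.0571).

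The number of unmarked regions changed by more than 1.5 times when only the summits had to avoid histone peaks (14293 in NMR, 4818 in DMR) and on scaffolds reaching 1 Mb (5841 in NMR). Without the HNF4A lists NMR had 6945. Leaving out 1 library or animal in turn gave 9075 to 145094 in NMR and 1917 to 51630 in DMR; the values without the sharing rule, from 1 animal's lists alone, were far higher than the rest (125078 and 145094 in NMR, 33613 and 51630 in DMR). Depth is unknown, so a missing histone peak can mean a weak mark as well as none.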
